A study of Mus musculus with 4 samples.

Results

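The inhibitor of NF-kB (IkB) family was followed in mouse mucosal mast cells differentiated in vitro, either IL-18 stimulated or unstimulated. The members are the 5 genes Nfkbia, Nfkbib, Nfkbie, Nfkbiz and Bcl3, taken as every gene spot of the arrays that carries one of these names. Each name has 1 probe with 1 spot on each array, so the family makes up 5 of 43379 gene spots per array and 5 of the 24104 probes tested. Total RNA of 4 biological replicates was hybridised to 4 Agilent arrays of paired colours, with the IL-18 stimulated RNA in the Cy5 channel and the unstimulated RNA of the same replicate in the Cy3 channel. Mouse strain, genotype, age, the amount of IL-18, the length of stimulation and whether replicates were separate mice or cultures are details that the labels do not give, so p-values measure the spread between these 4 replicate pairs. The dyes were never swapped, so a difference of a probe's response to the dyes and an effect of IL-18 cannot be told apart.

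NF-kB transcription factors are held inactive by IkB proteins, which bind them through ankyrin repeats and keep them in the cytoplasm. Receptors that use MyD88, the IL-18 receptor among them, activate the IkB kinase, which marks the classical IkB proteins for ubiquitination and destruction by the proteasome. Freed NF-kB then switches on genes for cytokines and chemokines and, as negative feedback, several IkB genes. Nfkbia, Nfkbib and Nfkbie encode the classical cytoplasmic inhibitors IkB-alpha, IkB-beta and IkB-epsilon, whereas Nfkbiz and Bcl3 encode the nuclear proteins IkB-zeta and Bcl-3, which act on NF-kB that is already bound to DNA. Arrays measure transcripts, and the destruction of the proteins is not seen in these data.

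All 5 genes were higher in IL-18 stimulated cells than in unstimulated cells (limma, adjusted p at most 0.0025, n = 4 arrays), on a background in which 24.1% of all tested probes were called higher. Nfkbia and Nfkbiz had by far the larger ratios, 4.54-fold and 3.43-fold, and lay at ranks 2 and 7 of 24104 probes. Ranks depend on how dim probes are treated: with the scanner software's log ratio these genes lay at ranks 16 and 36, and with a normexp offset of 0 at ranks 5 and 11. Their log2 ratios were 2.22 and 1.88 with the scanner software and 2.19 and 1.83 with that offset. Nfkbie followed at 1.76-fold, and Bcl3 at 1.40-fold and Nfkbib at 1.35-fold were the smallest. The ratio was above 1 on 4 of 4 arrays for every member, as it was for 32.3% of the 24055 probes with a value on every array.

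Promoter sequences are shown because the members moved together and because NF-kB factors bind known kB motifs. The RefSeq promoter table for mouse build GRCm38.p6 matched 4 of the 5 members, with Nfkbiz as the exception. It gives 250 bases before and 50 bases after a start of each gene, and both strands of that window were searched for a kB consensus motif and for the shorter motif GGACTTTCC. The 250 bases before the start of 3 classical members are printed 5′ to 3′ on the gene's own strand, with motif matches in capitals. Nfkbia lies on the minus strand (chr12:55492648-55492897), Nfkbie on the plus strand (chr17:45555450-45555699) and Nfkbib on the minus strand (chr7:28766645-28766894).
Nfkbia: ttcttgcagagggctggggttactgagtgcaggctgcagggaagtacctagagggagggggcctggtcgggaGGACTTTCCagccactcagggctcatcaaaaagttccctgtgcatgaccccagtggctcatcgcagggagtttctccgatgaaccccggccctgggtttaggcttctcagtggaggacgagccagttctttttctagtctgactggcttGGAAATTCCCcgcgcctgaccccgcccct
Nfkbie: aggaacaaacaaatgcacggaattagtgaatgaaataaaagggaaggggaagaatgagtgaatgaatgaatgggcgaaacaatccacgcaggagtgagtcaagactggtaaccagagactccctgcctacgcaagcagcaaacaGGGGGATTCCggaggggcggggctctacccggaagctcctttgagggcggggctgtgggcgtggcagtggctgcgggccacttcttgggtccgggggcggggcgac
Nfkbib: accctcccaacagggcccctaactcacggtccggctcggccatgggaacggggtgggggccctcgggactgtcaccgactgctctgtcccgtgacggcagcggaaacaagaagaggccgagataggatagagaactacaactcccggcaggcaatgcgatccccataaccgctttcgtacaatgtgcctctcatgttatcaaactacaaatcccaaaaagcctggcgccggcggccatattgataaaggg
In Nfkbia the shorter motif lay on the gene's strand from 178 to 170 bases before the start, and a kB consensus match lay on the opposite strand from 29 to 20 bases before it. These matches did not overlap. Nfkbie held 1 kB consensus match, on its own strand, from 106 to 97 bases before the start. Bcl3 held 1 match on the opposite strand, from base 3 to base 12 after the start that the promoter table uses, which for this gene lies inside the annotated gene and not at its outer end, and Nfkbib held neither motif in this window. Of 32851 promoters of the same length, 4.51% held a kB consensus match and 0.344% held the shorter motif. GC content of the window was 61.0% in Nfkbia, 58.0% in Nfkbie, 56.3% in Nfkbib and 69.0% in Bcl3, against a median of 52.7% over all promoters. The matches are descriptions of sequence, and binding was not measured.

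Spots of all 5 members were well measured. Each of the 20 member spots was well above background in both channels, none was saturated and none carried an outlier flag. Local background was 39 to 45 brightness units around the Cy5 spots of stimulated cells and 25 to 32 units around the Cy3 spots of unstimulated cells. The Cy5 channel had the higher mean gene spot brightness, 2968 to 3737 units for stimulated cells against 1156 to 1385 units for unstimulated cells. The medians were nearly equal, 93.2 to 104.6 units for stimulated cells and 90.2 to 102.4 units for unstimulated cells, so the channels did not differ by 1 common factor. Without normalization the log2 ratio of Nfkbia was 3.12 to 3.62 on the 4 arrays and that of Nfkbib 1.32 to 1.57, more than the normalized values. The log2 ratios and normalized levels below are after loess normalization within each array, which removes the overall dye trend.

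**Figure D1:**
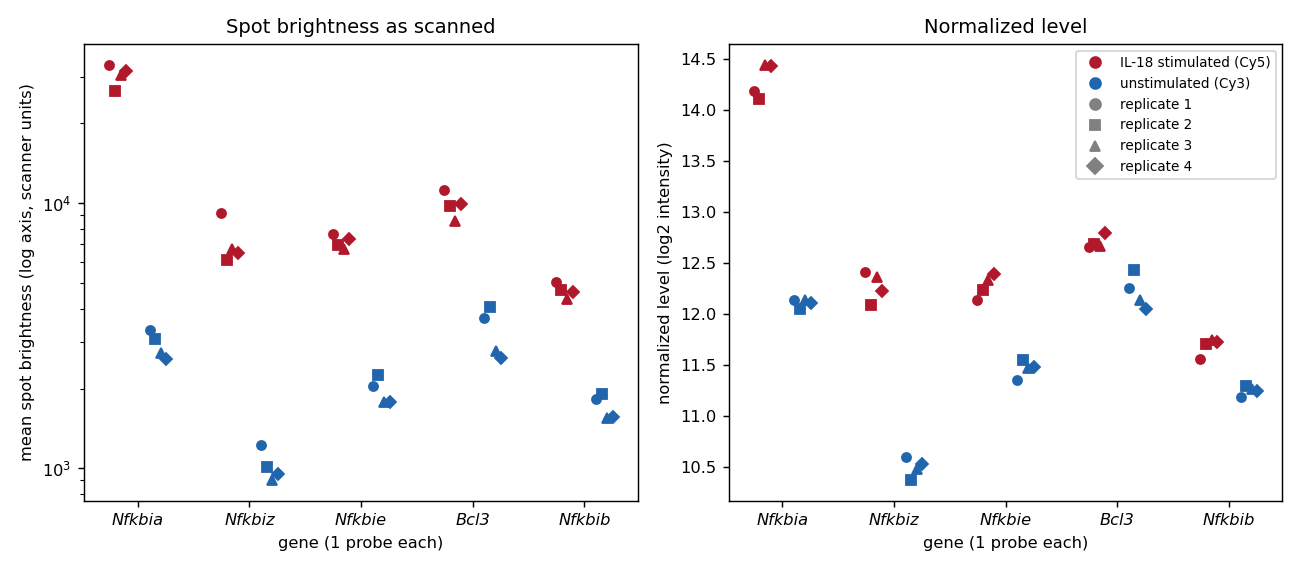
Brightness of the member probes on each array. The left panel plots the mean spot brightness in scanner units on a log axis and the right panel the normalized level in log2 intensity, with IL-18 stimulated cells in red to the left of unstimulated cells in blue, and 1 marker shape for each of 4 replicates. The stimulated and unstimulated points of each gene do not overlap in either panel, with the narrowest gap for Bcl3 on the normalized scale (lowest stimulated level 12.66, highest unstimulated level 12.43).

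Nfkbia encodes IkB-alpha, the classical inhibitor that is destroyed and resynthesised fastest after stimulation. Its spot brightness in replicates 1 to 4 was 33292, 26412, 30555 and 31538 units in IL-18 stimulated cells, against 3319, 3065, 2713 and 2587 units in unstimulated cells. The groups were far apart: the dimmest stimulated spot was brighter than every unstimulated one. After normalization its level was 14.29 ± 0.17 log2 units in stimulated cells and 12.11 ± 0.04 log2 units in unstimulated cells (SD, n = 4 each). The unstimulated levels were tightly grouped and the spread lay in the stimulated channel. Its log2 ratios were 2.05, 2.05, 2.31 and 2.32, with a mean of 2.18 ± 0.15 (SD, n = 4) and an adjusted p of 2.61e-05 (limma). Replicates 3 and 4, which share a slide, lay above replicates 1 and 2, which share the other. The mean was 2.05 within the first slide and 2.31 within the second. Above it in the reported processing stood the probe of the chemokine gene Ccl1.

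Nfkbie encodes IkB-epsilon, an inhibitor that prefers complexes with the subunits RelA and c-Rel. Its brightness was 7658, 6939, 6706 and 7315 units in IL-18 stimulated cells, against 2038, 2249, 1783 and 1784 units in unstimulated cells. Every stimulated spot was brighter than every unstimulated one, and replicate 2 had the smallest separation. The log2 ratios were 0.79, 0.69, 0.86 and 0.91, with a mean of 0.81 ± 0.10 (SD, n = 4) and an adjusted p of 0.000124 (limma). Its normalized level was 12.27 ± 0.11 log2 units in stimulated cells and 11.46 ± 0.08 log2 units in unstimulated cells (SD, n = 4 each). The ratio was again larger on the second slide, at 0.89 on the log2 scale, than on the first, at 0.74.

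Nfkbib encodes IkB-beta, a classical inhibitor whose gene is known to respond less to NF-kB than that of IkB-alpha. Its brightness was 5030, 4715, 4351 and 4618 units in IL-18 stimulated cells, against 1825, 1902, 1549 and 1566 units in unstimulated cells. The groups did not overlap, though the normalized gap was small. Its normalized level was 11.68 ± 0.08 log2 units in stimulated cells and 11.25 ± 0.05 log2 units in unstimulated cells (SD, n = 4 each). The log2 ratios were 0.38, 0.41, 0.48 and 0.48, with a mean of 0.44 ± 0.05 (SD, n = 4) and an adjusted p of 0.000401 (limma). This was the smallest mean ratio of the family and also the smallest spread between arrays. Its rank was 678 of 24104, with 2.81% of all tested probes above it, but 1166 with a normexp offset of 0 and 2213 with the scanner software's log ratio.

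Nfkbiz encodes IkB-zeta, a nuclear protein induced by IL-1 and Toll-like receptor signals that is needed for a second wave of NF-kB targets such as Il6. Its brightness was 9216, 6106, 6724 and 6466 units in IL-18 stimulated cells, against 1226, 1014, 903 and 956 units in unstimulated cells. Replicate 1 was the brightest in both channels, and the groups were far apart. The log2 ratios were 1.81, 1.72, 1.88 and 1.69, with a mean of 1.78 ± 0.09 (SD, n = 4) and an adjusted p of 2.61e-05 (limma). The high brightness of replicate 1 thus did not give it the highest ratio, which was that of replicate 3. The normalized level was 12.27 ± 0.15 log2 units in stimulated cells and 10.49 ± 0.10 log2 units in unstimulated cells (SD, n = 4 each). Unlike Nfkbia, its ratio was nearly equal on both slides, 1.77 on the first and 1.79 on the second. The RefSeq table held no promoter entry for Nfkbiz.

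Bcl3 encodes Bcl-3, a nuclear IkB protein that binds homodimers of the p50 and p52 subunits and can activate or repress transcription. Its brightness was 11200, 9752, 8592 and 9936 units in IL-18 stimulated cells, against 3692, 4073, 2776 and 2613 units in unstimulated cells. The groups did not overlap. The log2 ratios were 0.41, 0.26, 0.53 and 0.75, with a mean of 0.49 ± 0.21 (SD, n = 4) and an adjusted p of 0.0025 (limma). This was the widest spread of the 5 genes: replicate 4 was well above replicate 2, and the mean was 0.33 within the first slide and 0.64 within the second. The normalized level was 12.70 ± 0.06 log2 units in stimulated cells and 12.22 ± 0.16 log2 units in unstimulated cells (SD, n = 4 each). Here the spread lay in the unstimulated channel, the reverse of Nfkbia.

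**Figure D2:**
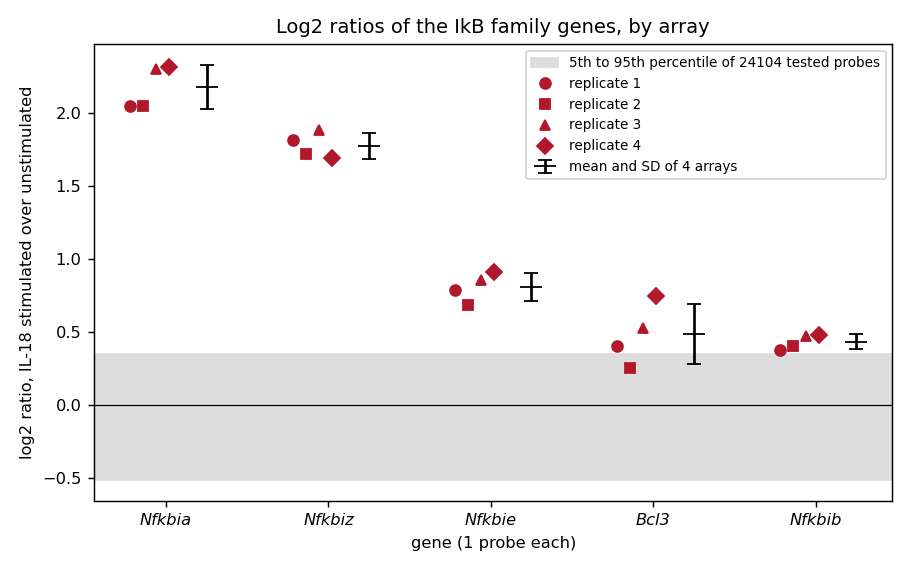
Log2 ratio of IL-18 stimulated over unstimulated cells for each member on each of 4 arrays (markers), with the mean and SD over arrays beside them. The grey band runs from the 5th to the 95th percentile of all 24104 tested probes (-0.51 to 0.35), and only the replicate 2 ratio of Bcl3, 0.26, lies inside it.

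The authors' deposited log ratios, made by the scanner software with its own background and dye correction, gave the same direction on every array. Converted to log2, the authors' deposited ratios of Nfkbia were 2.10, 2.11, 2.32 and 2.36, and those of Nfkbiz were 1.88, 1.80, 1.99 and 1.84. The software also deposited a p-value for each spot within its own array, which does not use the replicates. By the authors' deposited values, Nfkbia and Nfkbiz had within-array p-values of at most 7.95e-12. The within-array p of Nfkbib lay between 0.00789 and 0.0417, and that of Bcl3 on replicate 2 was 0.143, for a deposited log10 ratio of 0.0908 with an error of 0.062. The software's error model therefore did not separate Bcl3 from 0 on that array taken alone, whereas the limma test uses the spread over all 4 arrays.

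The members also differed among themselves in the size of the response. Nfkbia exceeded Nfkbiz by 0.40 ± 0.17 in log2 ratio, Nfkbie by 1.37 ± 0.08, Bcl3 by 1.70 ± 0.11 and Nfkbib by 1.75 ± 0.10 (SD over 4 arrays). Nfkbiz exceeded Nfkbie by 0.97 ± 0.12 and Nfkbie exceeded Bcl3 by 0.33 ± 0.12 (SD over 4 arrays). Each of these differences had 1 sign on all 4 arrays, as did 9 of the 10 pairs. By the exact two-sided sign-flip test over 4 arrays each of the 9 had the smallest p that this design allows, which was 0.139 after Benjamini-Hochberg adjustment over the 10 pairs and cannot pass the threshold. The exception was Bcl3 against Nfkbib, which differed by 0.05 ± 0.17 (SD over 4 arrays), with array values from -0.15 to 0.26 and an exact sign-flip p of 0.625. The order of the ratios was therefore Nfkbia, Nfkbiz and Nfkbie, followed by Bcl3 and Nfkbib, whose order changed from array to array.

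In the reported processing, replicates 3 and 4 of Nfkbia, Nfkbib, Nfkbie and Bcl3 lay above the gene's own mean and replicates 1 and 2 below it. Nfkbiz did not follow this: its replicate 1 and 3 ratios lay above its mean and its replicate 2 and 4 ratios below. The mean ratio over the 5 members was 1.09 in replicate 1, 1.03 in replicate 2, 1.21 in replicate 3 and 1.23 in replicate 4. The SD of the log2 ratios of all tested probes was 0.28, 0.27, 0.26 and 0.38 on the same arrays, so replicate 4 was the widest as a whole. With the arrays scaled to equal spread, the replicate 4 ratio of Nfkbia was 2.05 against a mean of 2.19, and those of Nfkbib, Nfkbie and Nfkbiz were below their means too, whereas that of Bcl3, at 0.66, stayed the highest of its 4. With median centring the replicate 3 ratios of Nfkbib (1.144 against a mean of 1.147) and Bcl3 (1.275 against 1.289) were slightly below their means. The replicate 1 ratio of Nfkbie, at 1.578, was slightly above its mean of 1.558. The shared order of the arrays therefore held in the reported processing and in neither of these scalings. It also held in the authors' deposited ratios of Nfkbia, Nfkbib, Nfkbie and Bcl3.

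**Figure D3:**
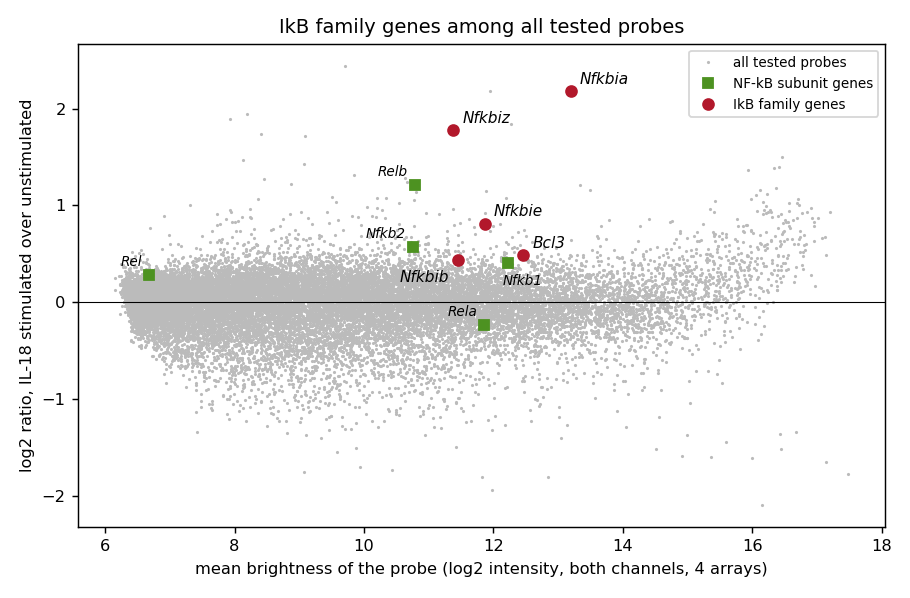
Mean log2 ratio of IL-18 stimulated over unstimulated cells (vertical axis) against the mean brightness of the probe in log2 intensity (horizontal axis), for all 24104 tested probes (grey), the 5 IkB family genes (red circles) and the NF-kB subunit genes (green squares). Nfkbia at 2.18 and Nfkbiz at 1.78 stand above the cloud at their brightness, and Nfkbib at 0.44 and Bcl3 at 0.49 lie near its upper edge.

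Since bright and dim probes have different spreads, each member was also set beside probes of like brightness. Nfkbia fell in the brightest of 10 equal groups of probes, where the 95th percentile of the log2 ratio was 0.59 and 31.1% of probes were called higher. Nfkbib, Nfkbie and Bcl3 fell in the group just below, with a 95th percentile of 0.36 and 23.0% called higher. Nfkbiz fell in the next group, with a 95th percentile of 0.39 and 26.3% called higher. All 5 members lay above the 95th percentile of their own group. Only 44 probes, 0.183% of those tested, were called higher with a log2 ratio of at least 1, and Nfkbia and Nfkbiz were among them. Normalized stimulated levels lay wholly above the unstimulated ones for all 5 members and for 16.3% of all tested probes.

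Among genes with a plain symbol, those whose 4 log2 ratios lay nearest to Nfkbia, by Euclidean distance over the arrays, were Il1b (distance 0.17), Ccl1 (0.56) and Ccl3 (0.69). Il1b encodes a pro-inflammatory cytokine, and Ccl1 and Ccl3 encode chemokines. Likeness was taken in the reported processing and goes by the size of the ratios. The genes nearest to members of such high rank are therefore other genes with large ratios. The mean log2 ratio was 2.18 ± 0.18 for Il1b, 2.44 ± 0.18 for Ccl1 and 1.84 ± 0.20 for Ccl3 (SD, n = 4 arrays, limma adjusted p at most 5.36e-05). Nearest to Nfkbiz were Traf1 (0.30), an adaptor of TNF receptors, Zc3h12a (0.31), an RNase that degrades inflammatory transcripts, and Ccl3 (0.38). Their mean log2 ratios were 1.71 ± 0.19 for Traf1 and 1.74 ± 0.11 for Zc3h12a (SD, n = 4 arrays). No other member reached a log2 ratio of 1, and none of the others was compared in this way.

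Among the partners that IkB proteins bind, 4 of the 5 NF-kB subunit genes were called higher and 1 lower, against 26.3% higher and 20.7% lower among the 16970 genes tested. The median log2 ratio of the subunit genes was 0.40, and that of all genes tested was 0.03. Relb, which encodes a subunit of the alternative pathway, had log2 ratios of 1.34, 1.16, 1.25 and 1.08, a mean of 1.21 ± 0.11 (SD, n = 4). Its replicate 1 was the highest and every array lay above 1. The mean log2 ratio was 0.57 ± 0.09 for Nfkb2, the precursor of p52, and 0.40 ± 0.14 for Nfkb1, the precursor of p50 (SD, n = 4). Rel, which encodes c-Rel, was well above background on 4 arrays in stimulated cells and on 0 in unstimulated cells. Its ratio therefore has no fixed size. Rel entered the test through the stimulated channel alone, so it could hardly have been called lower, and its call adds no support to the count. In the reported processing Rel was 1.21-fold higher in stimulated cells by normalized levels (6.82 in stimulated and 6.55 in unstimulated cells, log2 units, limma adjusted p = 0.00176). The lower bound on the ratio of Rel, as defined below, equals this estimate, at 0.28 on the log2 scale, and leaves no margin. Its log2 ratio was 0.28 as processed here, 0.58 with a normexp offset of 0 and 0.99 with the scanner software's log ratio. The lowest of 16 alternatives was 0.20, so this bound does not hold under every processing. Such bounds set the mean stimulated level against the higher, on each array, of the unstimulated level of the probe and the lowest level of any probe above background there, and are open to dye bias. Rela, which encodes the main transactivating subunit, went the other way at -0.24 ± 0.12 (SD, n = 4, limma adjusted p = 0.0107), and its second, dimmer probe gave -0.64. With each array centred on its median in place of loess, Rela was 0.51, so its direction depends on that scaling.

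Nfkb1 also gives the only view of technical spread within an array among these genes, because 1 of its probes is spotted 10 times. Its 10 spots had an SD of 0.02, 0.03, 0.02 and 0.04 on the log2 scale on the 4 arrays, with array means of 0.43, 0.26, 0.33 and 0.58. For the members, with 1 spot each, the same split was not possible.

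Negative feedback genes of the pathway other than the IkB genes rose in part: 6 of 10 measured genes were called higher and 0 lower (limma, also 0 at an unadjusted p under 0.05), with a median log2 ratio of 0.20, against 26.3% higher and 20.7% lower over all genes tested. For 1 of the 6, Otud7b, named here after its values were seen, a dimmer probe was called lower at -0.40. The uncalled Tax1bp1 had dimmer probes called lower at -0.35 and -0.74, and the uncalled Usp15 had dimmer probes called higher at 0.43 and 0.18. The largest was Zc3h12a, given above, followed by Tnfaip3, which encodes a ubiquitin-editing enzyme, and Tnip1, its binding partner. Tnfaip3 had log2 ratios of 0.80, 0.68, 0.85 and 0.72, a mean of 0.76 ± 0.07 (SD, n = 4), close to that of Nfkbie. Tnip1 had a mean of 0.36 ± 0.11 (SD, n = 4). Of 16 known NF-kB target genes, 13 were called higher and 0 lower (limma, also 0 at an unadjusted p under 0.05), with a median of 0.55, and Il1b, Ccl3 and Traf1 had the largest ratios. These counts go by each gene's brightest probe: for 2 of the 13, Icam1 and Bcl2l1, named here after their values were seen, a dimmer probe was called lower, at -0.45 and -0.47. Cxcl2, also named after its values were seen, is among the 13 and was dim, at a mean brightness of 6.46 log2 units. Whether target genes other than Il1b, Ccl3 and Traf1 were above background in unstimulated cells was not examined. A gene tested through the stimulated channel alone could hardly have been called lower. Nfkbia at 2.18 matched the largest ratio among the target genes, that of Il1b.

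The upstream machinery that phosphorylates and ubiquitinates the IkB proteins was called in both directions, beside 26.3% higher and 20.7% lower over all genes tested. Of 11 genes for IkB kinases and their scaffolds, 4 were called higher and 2 lower, with a median log2 ratio of -0.08. Tbk1, a kinase related to the IkB kinases, had a mean of -0.38 ± 0.17, Ikbkg, the regulatory subunit of the IkB kinase, 0.37 ± 0.14 and the scaffold Tank 0.29 ± 0.03 (SD, n = 4). The 4 probes of Ikbkg disagreed in size, from 0.04 to 0.37, so its call depends on the probe. Of 8 genes of the ubiquitin ligase that recognises phosphorylated IkB and its partners, 1 was called higher and 2 lower, with a median of -0.03. Btrc, its substrate receptor, had a mean of -0.28 ± 0.10, Ube2r2, a ubiquitin-conjugating enzyme, -0.37 ± 0.03, and the ring subunit gene Rbx1 0.19 ± 0.06 (SD, n = 4). The 4 probes of Ube2r2 ranged from -0.62 to 0.04 and the 3 probes of Rbx1 from 0.14 to 0.61. Some uncalled genes, named here after their values were seen, had dimmer probes that were called. These were lower for Csnk2a1 (-0.40 and -0.27) and the scaffold gene Tab2 (-0.54), higher for Cops5 (0.21), and in both directions for Ube2d3 (0.16 and -0.18). The directions rest on the dye correction: under median centring 10 kinase and scaffold genes were called higher and 0 lower, and 7 ligase genes higher and 1 lower. Tbk1 was 0.26 and Ube2r2 0.46 there, Btrc was -0.64 with the scanner software's log ratio, and the Rbx1 call was lost under 6 of 17 alternatives.

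Of 6 other genes linked to the IkB family, 0 were called higher and 3 lower, with a median log2 ratio of -0.10 (limma). Over all genes tested 26.3% were called higher and 20.7% lower. The 6 genes are listed as IkB relatives, though not all of them encode proteins related to IkB by sequence. The uncalled Nkrf and Nkiras2, named here after their values were seen, each had a dimmer probe called lower, at -0.19 and -0.33. At an unadjusted p under 0.05 there was 1 higher gene, Nkiras1, at 0.15 with an adjusted p of 0.0584 (limma), which is named here after its value was seen. Nfkbid, the third nuclear IkB gene, had log2 ratios of -0.14, -0.18, -0.09 and -0.14, a mean of -0.14 ± 0.04 (SD, n = 4, limma adjusted p = 0.0254). All 4 arrays were below 0 by a small amount, the reverse of Nfkbiz and Bcl3, but the call was lost under 6 of 17 alternatives. The probe of Nfkbid was dim, at normalized levels of 6.84 in stimulated and 6.98 in unstimulated cells. Its log2 ratio ran from -0.28 to -0.02 across the alternatives. Nfkbil1, a distant relative, had a mean of -0.17 ± 0.10 and Ankrd54, an ankyrin repeat protein, -0.46 ± 0.25 (SD, n = 4). Under median centring they were 0.50 and 0.13, so neither direction holds across scalings.

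Genes known to depend on IkB-zeta in mouse macrophages could be followed only in part, as 3 of the 7 on the array were tested. Of these, 2 were called higher and 1 lower, beside 26.3% higher and 20.7% lower over all genes tested. Csf2, which encodes the growth factor GM-CSF, was well above background on 4 arrays in stimulated cells and on 0 in unstimulated cells. It entered the test through the stimulated channel alone, so it could hardly have been called lower, and its call adds no support to the count. In the reported processing Csf2 was at least 1.61-fold higher in stimulated cells (normalized levels of 7.09 in stimulated and 6.32 in unstimulated cells, log2 units, limma adjusted p = 0.000284). Its log2 ratio has no fixed size, being 0.77 as processed here, 1.73 with a normexp offset of 0 and 3.17 with the scanner software's log ratio. With normexp fitted to all spots it was 0.62, which is below that bound. Il6 had log2 ratios of 0.53, 0.61, 0.82 and 0.71, a mean of 0.67 ± 0.12 (SD, n = 4). Il6 was above 0 on every array, with replicate 3 the highest. Cebpd, a transcription factor gene, had a mean of -0.19 ± 0.16 (SD, n = 4), with replicate 4 at 0.04 and the others below 0, and its call was lost or its direction turned under 10 of 17 alternatives. Whether these genes depend on IkB-zeta in mast cells was not measured.

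**Figure D4:**
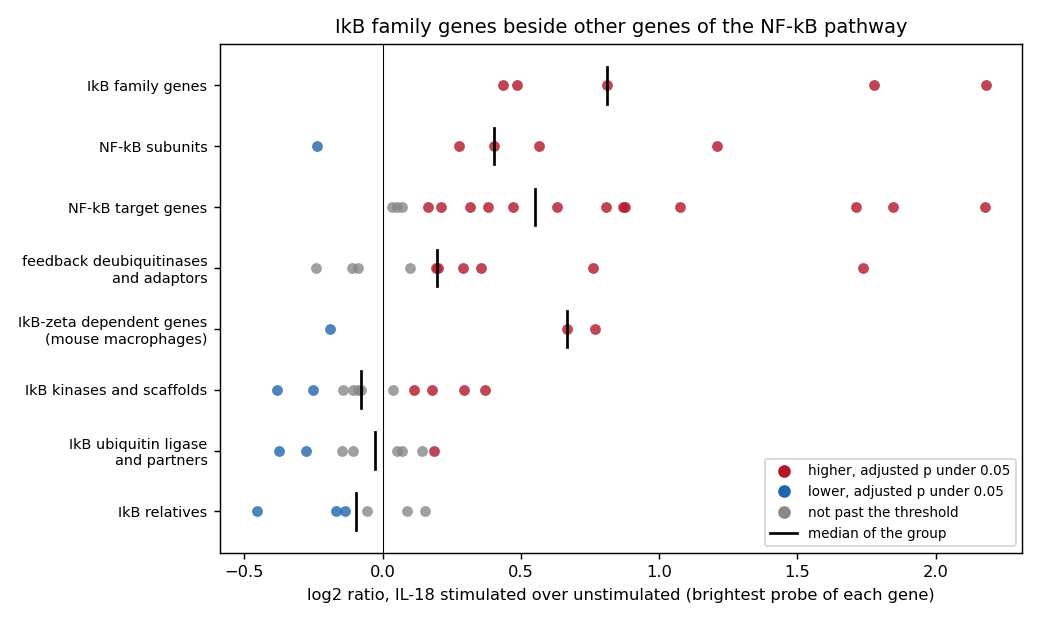
Mean log2 ratio of IL-18 stimulated over unstimulated cells for the brightest tested probe of each gene, in the IkB family and in 7 lists of related genes, with calls at an adjusted p under 0.05 in colour and the median of each list as a black bar. All 5 IkB family genes lie to the right of 0, from 0.44 to 2.18, whereas the kinases, the ubiquitin ligase genes and the genes listed as IkB relatives lie on both sides of it. The points of Rel at 0.28 and Csf2 at 0.77 were not above background in unstimulated cells and mark no fixed size.

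The cells carried the transcripts of mast cells. All 10 mast cell marker genes on the arrays were well above background in both channels on all 4 arrays, among them Mcpt1, Mcpt2, Kit and Fcer1a. By each gene's brightest probe 6 of these were called higher and 1 lower, with a median log2 ratio of 0.28, beside 26.3% higher and 20.7% lower over all genes tested. For 1 of the 6, Gata2, named here after its values were seen, a dimmer probe was called lower at -0.27. The 6 macrophage markers were above background as well, with 1 called higher, 1 lower and a median log2 ratio of -0.03. The uncalled Lyz2, also named after its values were seen, had a dimmer probe called lower at -0.42. Of the other markers, 0 of 5 for neutrophils, 2 of 6 for T cells, 1 of 5 for B cells, 1 of 5 for dendritic cells, 3 of 5 for eosinophils and basophils and 2 of 4 for erythroid cells were above background in both channels on all arrays. Of those tested, 1 was called higher in each of these lists but that of the neutrophils, and 0 were called lower (limma, also 0 at an unadjusted p under 0.05). More of these markers were above background on all arrays in stimulated than in unstimulated cells in 4 lists. They were 5 against 2 for T cells, 3 against 1 for B cells, 3 against 2 for erythroid cells and 1 against 0 for neutrophils. A marker tested through the stimulated channel alone could hardly have been called lower, so the absence of lower calls adds no support. The uncalled Hba-a1, named here after its values were seen, had a dimmer probe called higher at 0.12. The part of other cells in the members' ratios was not tested, and in such bulk samples a change in the number of cells of a type and a change of RNA per cell cannot be told apart.

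The members' calls held under every alternative processing tested, but the size of all 5 ratios depended on the dye correction. Across 17 alternatives with a test, all 5 genes were called higher each time. With each array centred on its median in place of loess, the log2 ratios were 3.07 for Nfkbia, 2.48 for Nfkbiz, 1.56 for Nfkbie, 1.29 for Bcl3 and 1.15 for Nfkbib. That scaling moved the median of all tested probes to 0.38, from which the members stood 2.68, 2.10, 1.17, 0.91 and 0.76 apart in the same gene order. With loess the median was 0.01 and the distances were 2.17 for Nfkbia, 1.76 for Nfkbiz, 0.80 for Nfkbie, 0.47 for Bcl3 and 0.42 for Nfkbib. Median centring also changed the split of calls over all probes, to 91.9% higher among the called probes, against 50.1% with loess.

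**Figure D5:**
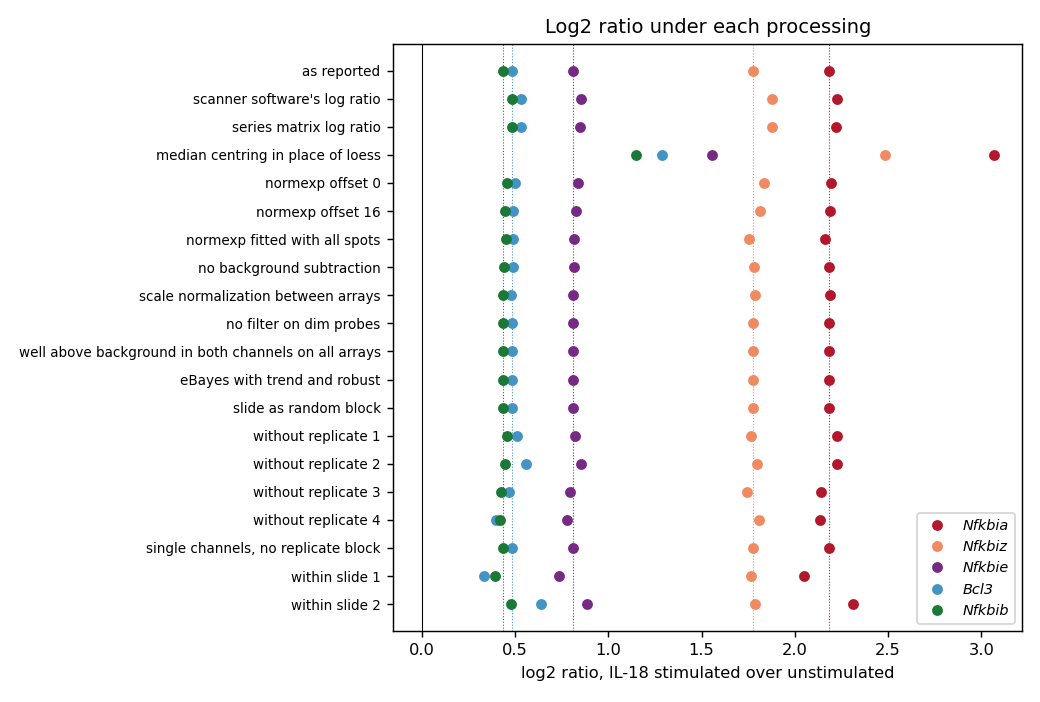
Log2 ratio of IL-18 stimulated over unstimulated cells for each member (colours) as reported and under 19 other ways of processing or subsets of arrays (lines down the page), with dotted lines at the reported values. Nfkbia and Nfkbiz stay above Nfkbie, and Nfkbie above Bcl3 and Nfkbib, in each line, while median centring shifts all 5 genes to the right and the within-slide means spread Bcl3 from 0.33 to 0.64.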

How the data were processed

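The deposited scanner files hold, for every spot, the intensity (mean brightness) and the median local background in both channels, made by the authors with Agilent Feature Extraction 9.1 per the file headers and the submitters' processing notes. The same deposited files give a log10 ratio of Cy5 over Cy3 after the authors' background, linear and lowess dye correction, with an error score and a within-array p-value from the software's error model, per the file headers. The deposited series table repeats those log10 ratios within 0.00496 on the log10 scale, with column medians of 0. Its direction, scale and centring follow from that match. Flags were used as deposited.

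Background was corrected with normexp (offset 50) and log2 ratios were normalized by loess within arrays, with controls and flagged outlier spots at weight 0. Spots whose local background was over 1.5 times their own brightness (7, 0, 2 and 1 on replicates 1 to 4) were set missing first. With these 7 spots included, the median corrected brightness of replicate 1 was 388 units in stimulated cells and 553 in unstimulated cells, against 119 and 92 without them, and its median absolute log2 ratio was 0.0162, against 0.104 without them and 0.0955 to 0.119 on the other arrays. This choice was made after the data had been seen, and the fit with all spots is one of the alternatives.

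A probe entered the test with at least 3 values and 1 channel well above background on 3 or more of the 4 arrays. The fit used limma 3.58.1 in R 4.3.3 (lmFit with an intercept, eBayes, two-sided, Benjamini-Hochberg over 24104 probes, threshold 0.05). Each ratio compares the RNAs of 1 replicate pair, which makes the test a paired one. Levels per channel used Aquantile normalization. A gene is shown by its brightest tested probe, and 24913 of 43379 gene spots were named through their RefSeq accession (GRCm38.p6), the rest by the array's own name. The named genes are all members, up to 3 genes past the threshold with the largest absolute ratio in each list, Rela, Nfkb1, Nfkbid and Tnfaip3, all genes of lists of 5 or fewer, and the 3 nearest genes with a plain symbol for members with a log2 ratio of at least 1. Clone, predicted-gene and accession names did not count as plain symbols. Members and lists were chosen with earlier results of these data known. Arrays of 24104 probes were simulated, with 50 probes each changed by 0.25, 0.5, 1 and 2 on the log2 scale. Of these, 28%, 66%, 94% and 100% were recovered, and 0.0293% of unchanged probes were called. The changed probes were drawn from those above median brightness, and no dye bias of single probes was simulated. Far fewer probes were changed than the 5820 called higher and 5807 called lower in the data, so these shares do not carry over to them. The number of arrays limits the precision.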

Additional observations from a re-analysis of the deposited data

Results flagged for a closer look

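None of the 5 IkB family genes had an array that stood far from the other 3, by the gap to the nearest array divided by the whole range. Among 38 sets of 4 values examined, 3 passed Dixon's critical value for 4 values, and chance flags about 1 set in 20. All 3 are other genes of the pathway, and in each the array that stood apart was replicate 4. For Ankrd54 the value was 0.868, with a log2 ratio of -0.83 in replicate 4 against -0.28, -0.35 and -0.35 in replicates 1 to 3. For Ikbkg it was 0.865, with 0.58 in replicate 4 against 0.30, 0.28 and 0.32. For Cebpd it was 0.8292, with 0.04 in replicate 4 against -0.29, -0.29 and -0.23. Over all probes the log2 ratios of replicate 4 had an SD of 0.38, against 0.26 to 0.28 on the other arrays.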

How the results depend on the processing

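Across 17 alternatives with a test, the 5 members were called higher in each, with adjusted p-values (limma) of at most 0.00121 for Nfkbia, 0.0011 for Nfkbiz, 0.00207 for Nfkbie, 0.00461 for Nfkbib and 0.0171 for Bcl3. Leaving out each replicate in turn gave log2 ratios of 2.14 to 2.23 for Nfkbia, 1.74 to 1.81 for Nfkbiz, 0.78 to 0.85 for Nfkbie, 0.42 to 0.46 for Nfkbib and 0.40 to 0.56 for Bcl3, and 5 members called higher and 0 lower each time. Over all probes it gave 3480 to 6182 called higher and 4108 to 6002 called lower, the 3480 without replicate 2, against 5820 and 5807 with all arrays. The test of single channels with no replicate block called 3730 probes higher, and its values for the members were the same to the second decimal. Normexp with all spots called 3869 probes lower. Median centring called 16652 probes higher and 1476 lower. Under it the lower calls came to 0 for the NF-kB subunits, 0 for the genes listed as IkB relatives, 0 for the kinases, 1 for the ubiquitin ligase list and 0 for the IkB-zeta dependent genes. The higher calls under it came to 4 for the genes listed as IkB relatives, 10 for the kinases, 7 for the ligase list and 10 for the feedback genes. Median centring turned the log2 ratios of Ankrd54 to 0.13, Cebpd to 0.59, Nfkbil1 to 0.50, Rela to 0.51, Tbk1 to 0.26 and Ube2r2 to 0.46. Of the other genes followed under 17 alternatives, calls were lost for Cebpd in 9, Nfkbil1 in 7, and Nfkbid and Rbx1 in 6 each. The cause was not tested. Alternatives for genes outside the family were chosen after seeing the data. With 1 spot per member on each array and no dye swap, the limits are the number of arrays and the dye.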
